A study of Rattus norvegicus with 6 samples.

Results

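The neutrophil granule and surface genes Cd177, Lcn2, S100a8, S100a9, Mpo and Camp were followed in rat lung. Members were the probes whose gene name in the scanner files, or an older synonym of it, was one of these 6 genes. This gave 9 probes for the 6 genes, out of 41012 probes on the array. In the fit across all features, which held 25152 features, 5 of the 6 genes were measured; Mpo did not pass the filter on dim probes.

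Male Wistar rats aged 9 weeks inhaled clean air, C60 fullerene (a cage of carbon) or ultrafine nickel oxide (Uf-NiO, here NiO), the study's positive control, in a whole-body chamber. Exposure lasted 6 hours a day on 5 days a week for 4 weeks, and lungs were taken 3 days or 33 days (1 month) afterwards. The 6 groups were the 3 exposures at the 2 times, with 3 clean air, 2 C60 and 4 NiO arrays at 3 days and 4 arrays of each at 1 month. RNA came from right lungs that had been flushed with saline, so the values are those of whole tissue, in which fewer cells of a type and less RNA per cell cannot be told apart. Values are log2 processed intensity minus the array's 75th percentile, so that 0 is the level of that percentile and a negative value is no absence of signal. They compare 1 probe between arrays, not 1 gene with another.

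Neutrophils are short-lived white blood cells that carry ready-made granules, which are filled in order as the cells mature in the bone marrow. Mpo (myeloperoxidase) belongs to the first, azurophil granules; Camp (cathelicidin) and Lcn2 (lipocalin 2) to the specific granules; and S100a8 and S100a9 form the calcium-binding dimer calprotectin of the cytosol. Cd177 is a glycoprotein anchored on the neutrophil surface and in specific granules. Lcn2 binds bacterial iron carriers and is also made by inflamed epithelium and by macrophages, which are not told apart from neutrophils in lung tissue.

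The probes behind the values of 4 of these genes are printed because each gene rests on 1 probe in the fit. All are 60 bases long, coordinates are on rn4 as the scanner files give them, and no letters are in capitals. The probe named Cd177 here carries the older gene name RGD1562941 in the files, on the minus strand at chr1:80033438-80033497. The S100a8 probe lies on the plus strand at chr2:182962328-182962387, the S100a9 probe on the minus strand at chr2:182987647-182987706 and the Camp probe on the minus strand at chr8:114214987-114215046. Exon, intron or UTR positions of these probes were not analysed here.
Cd177: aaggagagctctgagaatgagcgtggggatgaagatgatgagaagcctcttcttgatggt
S100a8: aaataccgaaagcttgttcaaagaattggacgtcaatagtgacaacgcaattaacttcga
S100a9: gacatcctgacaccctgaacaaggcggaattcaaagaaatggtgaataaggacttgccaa
Camp: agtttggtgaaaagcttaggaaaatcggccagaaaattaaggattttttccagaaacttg

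The 250 bases before the start of Cd177 and of Lcn2 are shown because these 2 genes rose together after NiO. They were taken from RefSeq on GRCr8, at chr1:89488444-89488693 and chr3:36081781-36082030, both on the minus strand and read 5′ to 3′. Of the 6 genes, 5 had such an entry. Capitals mark letters matching TATAAA, TTGCNNAA (a C/EBP core), TTCNNNGAA (a STAT site) or the NF-kB consensus, each searched on both strands, and no matches overlapped.
Cd177: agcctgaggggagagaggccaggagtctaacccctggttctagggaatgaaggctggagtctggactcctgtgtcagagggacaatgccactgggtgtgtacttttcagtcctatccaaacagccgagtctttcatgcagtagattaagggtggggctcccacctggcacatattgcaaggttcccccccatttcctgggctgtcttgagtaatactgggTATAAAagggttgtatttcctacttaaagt
Lcn2: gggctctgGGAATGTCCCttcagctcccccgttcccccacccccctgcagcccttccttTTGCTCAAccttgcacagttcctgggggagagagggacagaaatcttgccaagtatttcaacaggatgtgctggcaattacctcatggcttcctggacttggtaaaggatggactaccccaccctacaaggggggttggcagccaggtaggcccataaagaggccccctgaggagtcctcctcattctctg
The Cd177 window held 1 TATAAA match, starting at position -30 (-1 is the last base before the start), and none of the other 3 motifs. In the Lcn2 window, 1 match to the NF-kB consensus started at position -242 and 1 to TTGCNNAA at position -191. Among the other 3 windows, that of S100a9 held 1 TATAAA match at position -42, and those of Mpo and Camp held no match to any of the 4. Of 33469 windows of this length, 12.9% held TATAAA, 9.22% TTGCNNAA, 7.67% TTCNNNGAA and 6.33% the NF-kB consensus. A match is a description of letters only.

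Each of the 6 slides carried a single group, so that effects of slide and group cannot be told apart, and all 3-day arrays were scanned on one day and all 1-month arrays on another. Between 57.4% and 78.3% of spots on an array were well above background (over all 23 scanned arrays), and no spot of the 9 probes was saturated. The NiO arrays at 3 days were the least alike within a group (Pearson r across features 0.946 to 0.987), with arrays 2 and 3 standing apart. Counts of the gene classes at 3 days are therefore also given without these 2 arrays.

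Cd177, the surface glycoprotein, showed the larger of the 2 rises after NiO. On the 3 clean air arrays at 3 days it read -0.12, -0.55 and -0.25, on the 2 C60 arrays -0.36 and -0.32, and on the 4 NiO arrays 4.40, 3.91, 4.03 and 4.33. The NiO arrays lay far above both other groups, with no overlap. Cd177 rose 22.2-fold against clean air (log2 fold 4.47, SE 0.47, 95% interval 3.48 to 5.47, limma adjusted p = 8.76e-06), and its fold ranked 6th of 25152 features. C60 against clean air gave a log2 fold of -0.03 (interval -1.21 to 1.16, adjusted p = 0.99).

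At 1 month the clean air arrays read -0.40, -0.80, -0.58 and -0.15 for Cd177, the C60 arrays -0.16, -0.81, 0.19 and 0.05, and the NiO arrays 1.52, 1.57, 3.87 and 0.77. Each NiO array was above each clean air and C60 array, and array 3 was far above the other 3 NiO arrays. The rise against clean air was 5.32-fold (log2 fold 2.41, SE 0.44, interval 1.49 to 3.33, limma adjusted p = 0.00129). Without NiO array 3 the log2 fold was 1.77, with an adjusted p of 0.000398. The clean air and C60 ranges overlapped, at a log2 fold of 0.30 (interval -0.62 to 1.22, adjusted p = 0.636).

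The NiO effect on Cd177 was smaller at 1 month than at 3 days. The difference of the 2 log2 folds was -2.06 (SE 0.64, interval -3.41 to -0.71, limma adjusted p = 0.0204). Leaving out NiO arrays 2 and 3 at 3 days gave -2.26, with an adjusted p of 0.0513, which ended the call. Over all features the median of this difference was -0.18, and 23% of features were called lower; Cd177 was the 1 gene of the 5 called in it.

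Cd177 lies in a cluster of related genes. The nearest named probe on rn4, that of Cd177l2, started 16137 bases away, and it was well above background on 0 of 21 arrays. The part of a related transcript in the Cd177 signal was not tested.

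Lcn2, the iron-carrier-binding protein of specific granules, was also highest with NiO at both times. At 3 days it read 1.21, 1.48 and 2.67 on the clean air arrays, 1.60 and 1.91 on the C60 arrays, and 5.26, 4.70, 4.98 and 5.32 on the NiO arrays. Clean air array 3 was high for its group, and the NiO arrays still lay above all of the others. Lcn2 rose 9.7-fold after NiO (log2 fold 3.28, SE 0.38, interval 2.48 to 4.08, limma adjusted p = 2.2e-05). The C60 log2 fold was -0.03 (interval -0.99 to 0.93, adjusted p = 0.987).

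One month after exposure Lcn2 read 1.86, 2.00, 2.40 and 2.76 with clean air, 2.84, 2.59, 2.82 and 2.45 with C60, and 4.10, 4.17, 5.72 and 3.93 with NiO. The NiO arrays were above the others without overlap, again with array 3 highest, while the clean air and C60 ranges overlapped. NiO gave a 4.68-fold rise (log2 fold 2.23, SE 0.35, interval 1.48 to 2.97, limma adjusted p = 0.000556), and 1.81 without array 3. The authors' deposited table gives NiO over clean air ratios of 18.6 and 6.72 for Cd177 and 10.6 and 6.45 for Lcn2, at 3 days and 1 month. C60 gave a log2 fold of 0.42 (interval -0.32 to 1.17, adjusted p = 0.394). The difference between the times of the NiO effect on Lcn2 was -1.05 (interval -2.14 to 0.04, adjusted p = 0.115), which was not called; it was called without NiO array 3 at 1 month (-1.46, adjusted p = 0.0155) and without clean air array 3 at 3 days (-1.49, adjusted p = 0.0344).

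S100a8, one chain of calprotectin, did not pass the test in any comparison. At 3 days it read 1.10, 1.09 and 0.18 with clean air, 1.53 and 0.78 with C60, and 0.37, 0.17, -0.02 and 0.22 with NiO. The NiO arrays were at or near the low end of the clean air range, and clean air array 3 lay among them. The log2 fold of NiO was -0.60 (SE 0.35, interval -1.34 to 0.13, limma adjusted p = 0.227).

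The 1-month values of S100a8 were 0.88, -0.07, 1.33 and 0.80 with clean air, 0.53, 0.81, 0.64 and 1.64 with C60, and 1.41, 0.88, 1.49 and 0.39 with NiO. All 3 ranges overlapped. The NiO log2 fold was 0.31 (interval -0.37 to 0.99, limma adjusted p = 0.474) and that of C60 was 0.17 (interval -0.51 to 0.85, adjusted p = 0.727).

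S100a9, the partner chain, also overlapped between groups at both times. At 3 days its values were 1.90, 1.83 and 1.14 with clean air, 1.58 and 0.88 with C60, and 1.30, 1.77, 1.47 and 1.44 with NiO. The NiO values fell inside the clean air range. The log2 fold of NiO was -0.13 (SE 0.36, interval -0.89 to 0.64, limma adjusted p = 0.828).

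For S100a9 at 1 month the arrays read 1.83, 1.40, 1.88 and 1.49 with clean air, 1.05, 1.40, 1.27 and 2.49 with C60, and 2.13, 1.64, 2.80 and 1.05 with NiO. The highest value was on NiO array 3 and the next on C60 array 4, while other arrays of the same groups were at the low end. The NiO log2 fold was 0.25 (interval -0.45 to 0.96, limma adjusted p = 0.572). The upper bounds for S100a8 and S100a9 after NiO, 0.13 and 0.64 at 3 days, lie below the lower bounds of Lcn2 and Cd177, 2.48 and 3.48.

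**Figure D1:**
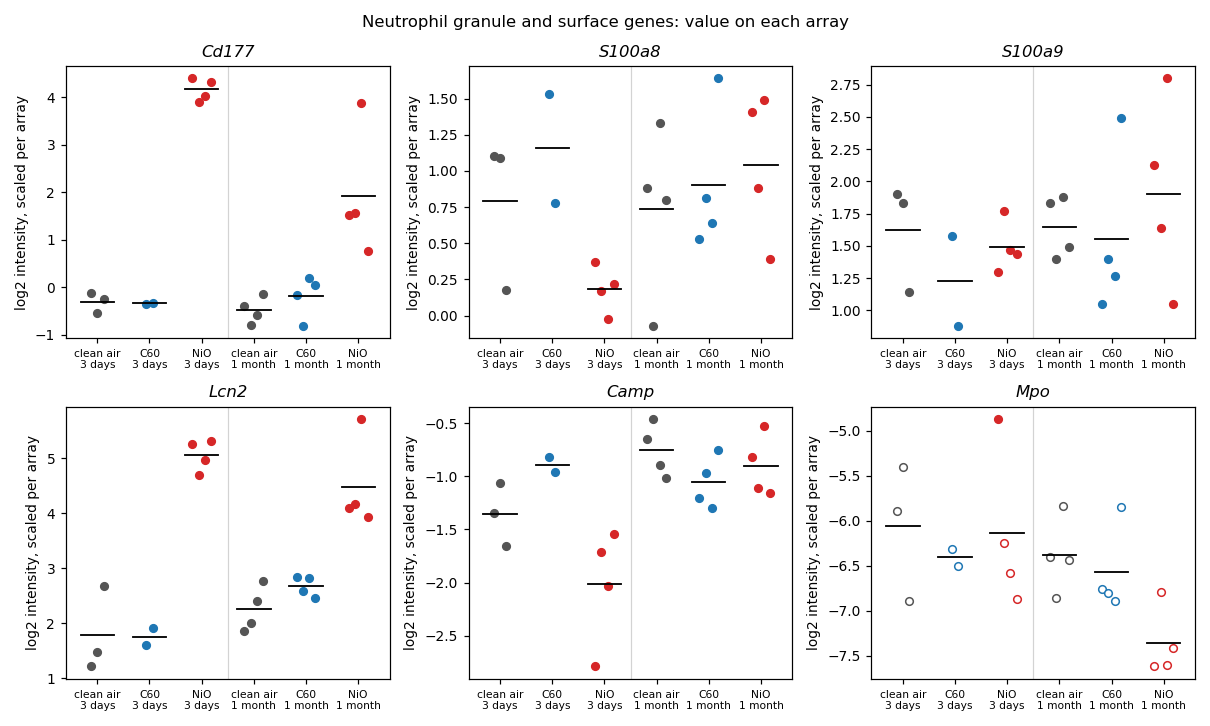
Log2 intensity, scaled per array, of each gene on every array used (points), by exposure and time, with group means as black lines; open points were not well above background. Cd177 and Lcn2 are higher on all NiO arrays at both times, and the highest NiO value at 1 month is 3.87 for Cd177 and 5.72 for Lcn2.

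Camp, the cathelicidin precursor of specific granules, was not called against clean air at either time. At 3 days it read -1.35, -1.06 and -1.66 with clean air, -0.82 and -0.96 with C60, and -2.79, -1.71, -2.03 and -1.54 with NiO. NiO array 1 was lowest and NiO array 4 lay within the clean air range. The log2 fold of NiO against clean air was -0.66 (SE 0.25, interval -1.19 to -0.14, limma adjusted p = 0.0703), not called, but called after quantile normalization (-0.75, adjusted p = 0.0482) and without NiO array 4 (-0.82, adjusted p = 0.0319).

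The 1-month values of Camp were -0.65, -0.46, -0.89 and -1.02 with clean air, -1.20, -0.97, -1.30 and -0.75 with C60, and -0.82, -1.11, -0.53 and -1.16 with NiO. The 3 ranges overlapped. The NiO log2 fold was -0.15 (interval -0.64 to 0.34, limma adjusted p = 0.634).

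Mpo, the peroxidase of azurophil granules, was well above background on 1 of 21 arrays, NiO array 1 at 3 days. The 4 NiO arrays at 3 days read -4.87, -6.25, -6.58 and -6.87, against -5.89, -5.40 and -6.89 with clean air and -6.31 and -6.50 with C60. At 1 month the medians were -6.42 with clean air, -6.78 with C60 and -7.50 with NiO, none of them well above background. No fold or test is given for Mpo, since both sides of each comparison were dim.

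Against clean air, 2 of the 5 genes were called higher after NiO at 3 days, where 11% of all features were called higher and 7.81% lower, and none of the 5 was called lower. At 1 month the same 2 genes, Cd177 and Lcn2, were called higher, where 11.9% of features were called higher and 18.9% lower, and again none was called lower. After C60, 0 of the 5 genes were called at 3 days, where 4.92% of features were called in either direction, and 0 at 1 month, where 19.7% were called. The smallest unadjusted p of the 5 genes was 0.14 (Camp) for C60 at 3 days and 0.209 (Camp) at 1 month in limma, so 0 had an unadjusted p under 0.05. For the difference of the C60 effect between the times, 0 of 5 were called (10.4% of all features), and the smallest unadjusted p was 0.059, again for Camp.

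**Figure D2:**
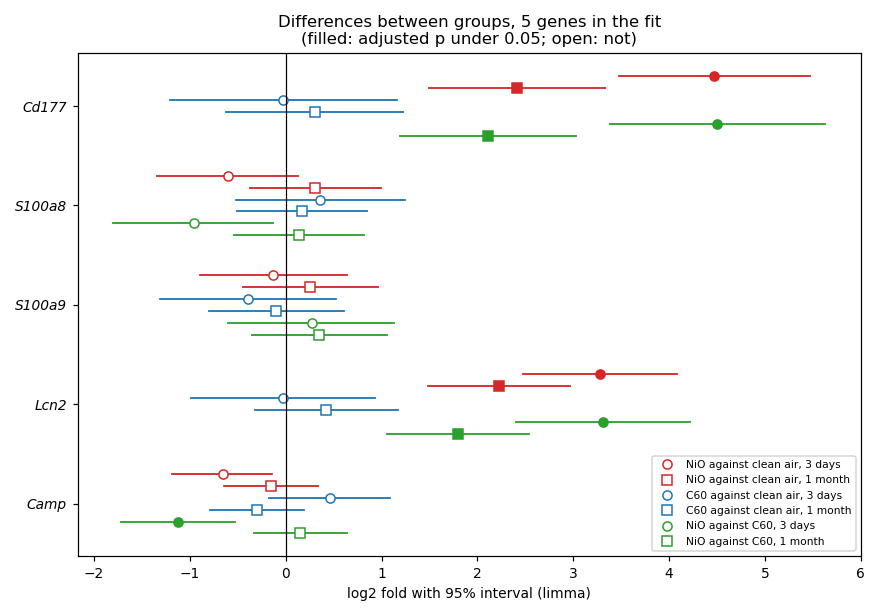
Log2 fold with its 95% interval from limma for the 5 genes in the fit, in 6 comparisons of 2 groups; filled symbols have an adjusted p under 0.05. Cd177 and Lcn2 lie at 4.47 and 3.28 for NiO at 3 days, while the C60 intervals of all 5 genes include 0.

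Between the 2 particles, the same 2 genes stood higher with NiO. At 3 days NiO against C60 gave a log2 fold of 4.50 for Cd177 (SE 0.53, limma adjusted p = 0.000108) and 3.31 for Lcn2 (SE 0.43, adjusted p = 0.000241), where 5.02% of features were called higher. Camp was lower (-1.12, SE 0.28, adjusted p = 0.0238), where 2.72% of features were called lower. That call rests on 2 C60 arrays. The log2 fold was -1.05 without C60 array 1 and -1.19 without C60 array 2, each with 1 C60 array left. With each of the 6 arrays left out in turn it ran from -1.28 to -0.86. The Camp call was lost in 2 of these 6 fits. Without NiO arrays 2 and 3 together the call was also lost (-1.27, adjusted p = 0.0511). The C60 arrays of 3 days not used, 3 and 4, read -1.56 and -1.79 for Camp, within the range of the NiO arrays. S100a8 was lower on all 4 NiO than on both C60 arrays, with a log2 fold of -0.96 that was not called (interval -1.80 to -0.13, adjusted p = 0.13). With all 4 C60 arrays scanned at 3 days it was -0.21 (adjusted p = 0.73).

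At 1 month NiO against C60 gave 2.11 for Cd177 (SE 0.44, limma adjusted p = 0.021) and 1.80 for Lcn2 (SE 0.35, adjusted p = 0.0145), with 0.831% of features called higher. The Cd177 call was lost without C60 array 1 (2.12, adjusted p = 0.065) and without C60 array 2 (1.90, adjusted p = 0.0879). The Lcn2 call was lost without C60 array 2 (1.77, adjusted p = 0.0518) and without C60 array 4 (1.73, adjusted p = 0.0567). Without NiO array 3 the log2 folds were 1.47 for Cd177 (adjusted p = 0.00725) and 1.39 for Lcn2 (adjusted p = 0.0352). In a fit on these groups alone Cd177 had an adjusted p of 0.102 and Lcn2 of 0.0431.

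The 2 calprotectin genes varied together across the arrays of 1 month, and at 3 days in their deviations from the group means, which were not tested. Over 21 arrays S100a8 and S100a9 had a Pearson r of 0.67 (permutation p = 0.00073, adjusted over 3 gene pairs 0.00219) and a Spearman rho of 0.68 (permutation p = 0.0009), with r = 0.62 without the 2 arrays farthest from the median of S100a8. Within the 12 arrays of 1 month r was 0.84 (permutation p = 0.00053) and rho 0.92 (permutation p = 7e-05). Over the 9 arrays of 3 days, with the groups pooled, r was 0.31 (exact permutation p = 0.416) and rho 0.32 (exact permutation p = 0.41). This r was 0.05 without the 2 farthest arrays. For deviations from the group means, given as a description with no test, r was 0.85 over all arrays, 0.82 at 3 days and 0.86 at 1 month. The lower r over the pooled arrays of 3 days is therefore not read as a difference between the times.

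S100a8 and Camp had r = 0.54 over the 21 arrays (permutation p = 0.00861, adjusted 0.0129) and rho = 0.59 (permutation p = 0.00591), and r = 0.73 without the 2 farthest arrays. It was 0.69 within 3 days (exact permutation p = 0.0343) and 0.21 within 1 month (permutation p = 0.514), where it was 0.77 without the 2 farthest arrays. For deviations from the group means it was 0.25 over all arrays, 0.20 at 3 days and 0.33 at 1 month. S100a9 and Camp had r = 0.39 (permutation p = 0.0818, adjusted 0.0818) and rho = 0.41 (permutation p = 0.0659), with r = 0.22 without the 2 farthest arrays. Within 3 days r was 0.12 (exact permutation p = 0.763) and rho 0.15 (exact permutation p = 0.708), and within 1 month 0.65 (permutation p = 0.0243) and 0.68 (permutation p = 0.0188); r was 0.51 at either time without the 2 farthest arrays. For deviations from the group means r was 0.57 over all arrays. All tests are two-sided. The permutations moved arrays between groups and slides, so differences between groups enter each of these p-values. No such value is given for Cd177 or Lcn2, whose arrays fall into separate clusters by exposure.

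**Figure D3:**
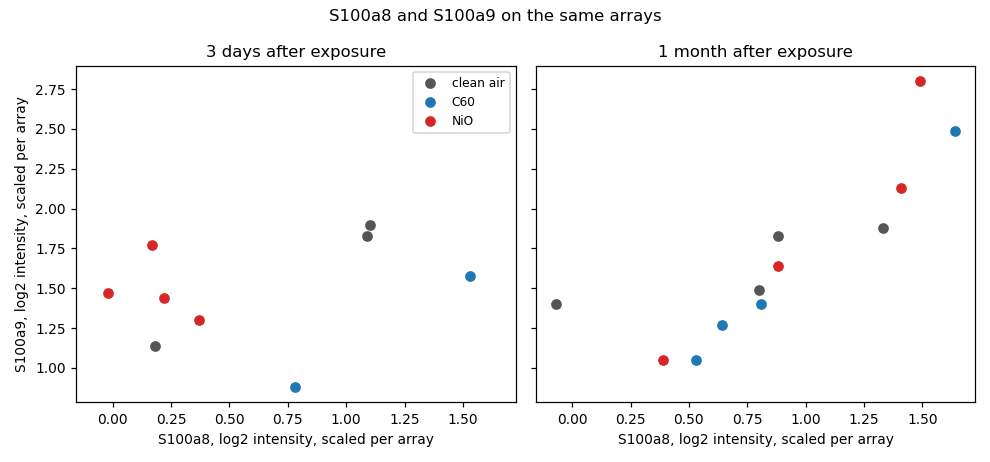
S100a9 against S100a8, both as log2 intensity scaled per array, for the arrays of 3 days (left) and 1 month (right), coloured by exposure. With the groups pooled, r was 0.84 at 1 month (n = 12) and 0.31 at 3 days (n = 9). For deviations from the group means it was 0.86 and 0.82.

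NiO array 3 at 1 month was the highest of its 4 arrays for all 5 measured genes: 3.87 for Cd177, 5.72 for Lcn2, 1.49 for S100a8, 2.80 for S100a9 and -0.53 for Camp. It was also the highest of that group for the chemokine Cxcl1 (2.84, the others 1.28 to 1.72) and for Arg1 (4.58, the others 3.60 to 3.73). It was the lowest for the chemokine receptor Cxcr1 (1.26, the others 1.46 to 1.87).

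Named genes with the most similar pattern to Cd177 over the 21 arrays, by Pearson r, were Mmp12, Ak4 and C3, each at 0.96. For Lcn2 they were Itih1 at 0.96, Bcat1 at 0.95 and Mmp12 at 0.94. The closest genes to S100a8 were Tspyl2 (0.79), Pllp (0.76) and Tmem140 (0.72), to S100a9 Lrg1 (0.74), Cfd (0.73) and Ldhc (0.68), and to Camp Arhgap20 (0.88), Zfp347 (0.87) and Arhgap24 (0.86). These were the highest of 12068 named genes and are given as a description, since the arrays share slides and groups.

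Beyond the 6 genes, a list of 57 other neutrophil genes covered granules, oxidase, surface receptors and transcription factors, and 47 of them were measured. After NiO at 3 days 15 were called higher and 2 lower, with a median log2 fold of 0.32 beside 0.04 over all features. Without NiO arrays 2 and 3 the counts were 9 and 0. At 1 month 13 were called higher and 4 lower, with a median of 0.19 beside -0.12, and without NiO array 3 the counts were 9 and 3. The shares over all features were those given above, 11% higher and 7.81% lower at 3 days and 11.9% and 18.9% at 1 month. The same shares stand beside the NiO counts of each class in the paragraphs that follow, and these counts are not read as traits of a class. C60 gave 2 higher and 1 lower at 3 days, beside 2.95% and 1.97% of all features, and 0 higher and 2 lower at 1 month, beside 7.27% and 12.5%.

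Azurophil granule genes are made early in neutrophil development. Elane, the neutrophil elastase, was well above background on 0 arrays and Ctsg, cathepsin G, on 1 of 21. Of the 4 measured genes listed for these granules, 1 was called higher at 3 days (0 without NiO arrays 2 and 3) and 1 lower at 1 month. The latter was Bpi, a protein that kills Gram-negative bacteria. It was well above background on the 4 clean air arrays of 1 month, at -4.84 to -3.07, and on 0 of the other arrays. It passed the filter on dim probes through that group alone, so its lower calls after NiO and C60, which the counts above include, were set by the filter and are not read as results.

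Of 7 measured genes listed for specific granules, 4 were called higher and 1 lower after NiO at 3 days (2 and 0 without NiO arrays 2 and 3). At 1 month 2 were called higher and 1 lower (1 and 0 without NiO array 3). Cd63, counted here although it marks azurophil granules, was among those called higher at 3 days. It stayed called without NiO arrays 2 and 3 (0.55, limma adjusted p = 0.0487). Chi3l1, a chitinase-like protein that macrophages also make, had a log2 fold of 0.97 (SE 0.27, limma adjusted p = 0.0209) at 3 days and 1.56 (SE 0.25, adjusted p = 0.000626) at 1 month. Olfm4, which marks a subset of neutrophils, read 0.55 at 3 days (adjusted p = 0.298) and fell by 1.09 at 1 month (adjusted p = 0.0242). That call was lost without NiO array 3 (-1.02, adjusted p = 0.0628), after quantile normalization (-0.53, adjusted p = 0.283) and with normexp (-0.42, adjusted p = 0.061). Ltf (lactoferrin) was well above background on 1 and Ngp on 2 of 21 arrays.

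Among the 4 gelatinase granule genes, 1 was called higher at 3 days, also without NiO arrays 2 and 3, and 1 higher and 1 lower at 1 month. The gene called higher was Arg1 at both times, which in rodents is expressed by macrophages. It rose by a log2 fold of 2.58 at 3 days (SE 0.22, limma adjusted p = 9.37e-07) and 1.00 at 1 month (SE 0.20, adjusted p = 0.00259). Mmp25, a membrane-bound metalloproteinase of neutrophils, read 0.65 at 3 days (adjusted p = 0.0924) and fell by 2.15 at 1 month (adjusted p = 5.03e-05). After C60, Mmp25 also fell by 2.19 on the log2 scale at 1 month (adjusted p = 9.89e-05), against the same 4 clean air arrays. Their mean was -2.59, beside -4.03 on the clean air arrays of 3 days.

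The 6 oxidase genes code for the enzyme that makes superoxide in neutrophils and macrophages alike. Of them, 3 were called higher at 3 days (3 without NiO arrays 2 and 3) and 5 at 1 month (3 without NiO array 3), and none lower. Cybb, the catalytic chain, had log2 folds of 1.00 (SE 0.15, limma adjusted p = 0.000214) and 0.46 (SE 0.14, adjusted p = 0.0182), in this order. The 1-month call was lost without NiO array 3 (0.32, adjusted p = 0.0667) and with normexp (0.32, adjusted p = 0.064).

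Among 20 measured surface genes and receptors, 5 were called higher and 0 lower after NiO at 3 days (3 and 0 without NiO arrays 2 and 3), and 3 higher and 1 lower at 1 month. Cxcr1, a receptor for neutrophil-attracting chemokines, rose by 1.33 (SE 0.21, limma adjusted p = 0.000537) and 0.94 (SE 0.20, adjusted p = 0.00325). Its relative Cxcr2 read -0.12 at 3 days (adjusted p = 0.805) and fell by 1.12 at 1 month (adjusted p = 0.00918), a call lost after quantile normalization (-0.61, adjusted p = 0.123). Trem1, an amplifying receptor of myeloid cells, rose by 0.76 (adjusted p = 0.0311) and 1.24 (adjusted p = 0.00103), and Il1r2, a decoy receptor for interleukin 1, by 1.02 at 3 days (adjusted p = 0.00886) with 0.15 at 1 month (adjusted p = 0.611). Without NiO arrays 2 and 3 the 3-day value of Il1r2 was 0.92 (adjusted p = 0.0867).

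Transcription factors of granule formation gave 1 gene called higher and 1 lower of 4 at 3 days (0 and 0 without NiO arrays 2 and 3). At 1 month 2 were called higher (1 without NiO array 3). Spi1 (PU.1), needed for myeloid cells, rose by 0.58 (limma adjusted p = 0.0374) and 1.09 (adjusted p = 0.000535). Its 3-day call was lost without NiO arrays 2 and 3 (0.63, adjusted p = 0.105) and after quantile normalization (0.54, adjusted p = 0.0552). The 2 measured rat neutrophil defensins were not called in either comparison, with median log2 folds of -0.33 and -0.43.

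**Figure D4:**
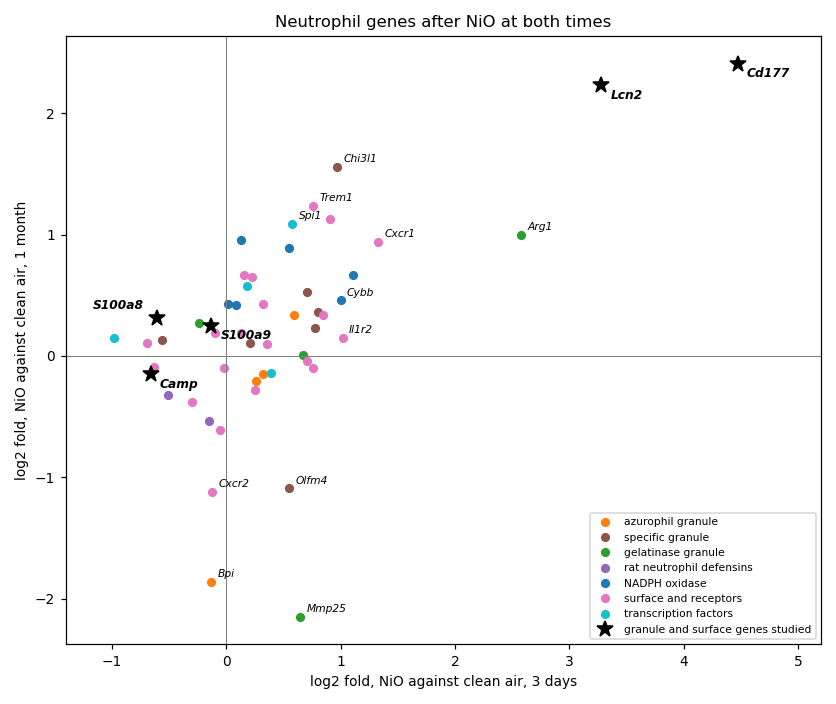
Log2 fold of NiO against clean air at 3 days (x axis) and at 1 month (y axis) for 47 other neutrophil genes, coloured by class, and for the 5 measured genes of the text (stars). Cd177 (4.47 and 2.41) and Lcn2 (3.28 and 2.23) lie farthest to the upper right, and Mmp25 (0.65 and -2.15) lowest.

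Neutrophil-attracting chemokines rose at 3 days: Cxcl1 by a log2 fold of 2.82 (SE 0.30, limma adjusted p = 9.29e-06) and Cxcl2 by 3.34 (SE 0.35, adjusted p = 8.59e-06), while at 1 month their log2 folds were 0.11 (adjusted p = 0.769) and 0.09 (adjusted p = 0.839). The clean air means were 0.59 at 3 days and 1.74 at 1 month for Cxcl1, and -3.66 and -2.31 for Cxcl2. With NiO the means were 3.41 and 1.86 for Cxcl1, and -0.32 and -2.21 for Cxcl2. At 1 month the NiO means thus stayed above the clean air means of 3 days, which were scanned on another day. Cxcl3 rose by 0.49 (adjusted p = 0.0156) and 0.66 (adjusted p = 0.00129), and its other probe gave 1.51 and 0.68. Without NiO arrays 2 and 3 the 3-day call of Cxcl3 was lost (0.44, adjusted p = 0.118), which left 2 of the 3 measured attractants called. Csf3 was well above background on 0 and Cxcl6 on 4 of 21 arrays. For Cxcl6 these were 3 NiO arrays of 3 days and 1 NiO array of 1 month, and it did not pass the filter on dim probes.

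In the wider S100 family of small calcium-binding proteins, calls went both ways. Of 9 measured members, 1 was called higher and 2 lower at 3 days and 2 higher and 1 lower at 1 month after NiO. Over all features 11% were called higher and 7.81% lower at 3 days, and 11.9% and 18.9% at 1 month. The medians were -0.19 and 0.06, beside 0.04 and -0.12 over all features. With 9 genes, these counts are not read as a trait of the family. S100a10, the annexin partner, was called higher at both times, by 0.35 (limma adjusted p = 0.0332) and 0.40 (adjusted p = 0.00759), and not at 3 days after quantile or normexp processing, where 0 members were called higher, nor without NiO arrays 2 and 3 (0.38, adjusted p = 0.0903; 0 higher and 2 lower). S100a1 and S100a16 were lower at 3 days, at -0.60 (adjusted p = 0.00527) and -0.39 (adjusted p = 0.00872). At 1 month S100a4 was higher by 0.32 (adjusted p = 0.0426), and S100z was lower, at -1.37 (adjusted p = 0.0333). Without NiO array 3 the counts at 1 month were 1 higher and 0 lower, and none was lower after quantile normalization.

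Markers of some other lung cells also differed between NiO and clean air arrays. The shares over all features were 11% called higher and 7.81% lower at 3 days, and 11.9% and 18.9% at 1 month. Of 10 macrophage markers, 3 were called higher at 3 days (2 without NiO arrays 2 and 3), with a median log2 fold of 0.00 beside 0.04 over all features. At 1 month 7 were called higher (5 without NiO array 3), with a median of 0.80 beside -0.12. Their summed scaled intensity ran from 143 to 256 on NiO and 84.6 to 97.6 on clean air arrays at 3 days, and from 178 to 255 and 105 to 120 at 1 month. Listed for monocytes were Ccr2, Ly6c, Cx3cr1, Cd36 and Ccl2, a chemokine that other cells also make. Of these 5 genes, 2 were called higher at 3 days (1 without NiO arrays 2 and 3), with a median of 0.78. Their sums did not overlap (18.9 to 30.7 with NiO, 9.98 to 18.1 with clean air). At 1 month 1 of the 5 was called higher, with a median of 0.08 and overlapping sums (11.6 to 17.1 and 15.7 to 21.7). Of 6 alveolar type II markers, 2 were called higher at 3 days (median 0.38) and 1 at 1 month (median 0.05). Without NiO arrays 2 and 3 the 3-day count was 1. The sums of 8 airway secretory markers overlapped between NiO and clean air (201 to 284 and 173 to 234 at 3 days, 114 to 179 and 161 to 241 at 1 month). Of 6 eosinophil markers, 1 was measured and not called. Of the 6 mast cell, 4 red blood cell, 6 T and NK cell and 3 B cell markers measured, 0 were called at 3 days. At 1 month 2 mast cell markers and 1 T and NK cell marker were called lower, and 0 were called higher. The part of these cells in the rise of Lcn2 and Cd177 was not tested.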

How the data were processed

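Per the file headers, the Agilent scans were turned into spot intensity values with Feature Extraction version 9.5.3.1 (protocol GE1-v5_95_Feb07), and the deposited processed intensity had background subtracted. The authors' deposited table of a ratio per group was used only as an alternative; no source used here says how it was made. Rebuilt from the scanner files it was particle over control, with column medians of 1.006, 1.038, 0.986, 0.997, 1.125 and 1.132, and its centring stays unknown. Marks for spots well above background, saturated or outlying were used as the scanner deposited them. The label of the 3-day C60 group gives n = 2 for 4 files: arrays 1 and 2 matched its deposited ratio (median absolute log2 difference 0.000821, at least 0.11 for other sets) and were used. This left 21 of 23 arrays.

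Log2 intensity was scaled to each array's 75th percentile. A probe was kept when well above background on every array of at least 1 group (28676 of 41012), with the brightest probe per named gene. Names came from the files through RefSeq's GRCr8 gene table. Differences were tested with limma 3.58.1 in R 4.3.3, in 1 fit over 6 groups with 15 residual degrees of freedom, and called at a Benjamini-Hochberg adjusted p under 0.05; the fit was tested on simulated data.

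That 1 array is 1 rat was assumed from the numbers in the labels. The p-values measure the spread between arrays, whose number limits the precision. The 6 genes and all lists were chosen with earlier results of these data known. Named from the neutrophil list were the 12 genes of largest fold among those called after NiO, of which 1 is not reported here, and from the S100 family those called. Alternatives were quantile normalization, normexp background (offset 50), other filters, all 4 C60 arrays, fits on the groups compared, other probes, the deposited ratio, each array left out and, chosen after seeing the data, 2 NiO arrays left out and correlations of deviations from group means.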

Additional observations from a re-analysis of the deposited data

Results flagged for a closer look

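Within groups of 4 arrays, 80 sets of values were checked for a single array far from the others, and 4 were found, where chance gives about 1 in 20. NiO array 3 at 1 month was far above the other 3 arrays of its group for Lcn2 (5.72), Arg1 (4.58) and Cybb (1.22). C60 array 2 at 1 month was far below its group for Trem1 (-0.65).

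The NiO effect differed between the times by the limma test of the difference, 1 month minus 3 days, for Cd177 (-2.06, adjusted p = 0.0204), Cxcl1 (-2.70, adjusted p = 0.000393), Cxcl2 (-3.24, adjusted p = 0.000323), Arg1 (-1.58, adjusted p = 0.00205), Mmp25 (-2.80, adjusted p = 0.000105), Olfm4 (-1.64, adjusted p = 0.0191), Il1r2 (-0.86, adjusted p = 0.0473) and Cybb (-0.54, adjusted p = 0.0407). Apart from Cd177 and the 2 chemokines, these genes had been named for the size of their NiO folds. The Cd177 difference was not called without NiO arrays 2 and 3 at 3 days, as given above. For the other genes the difference is given in the main fit only. Calls against clean air of Olfm4 and Cybb at 1 month and of Il1r2 at 3 days were lost under alternatives given above. Each difference also holds the change of the clean air arrays between the times. The clean air mean was higher at 1 month for Cxcl1, Cxcl2, Arg1, Mmp25 and Olfm4, and lower for Cd177, Il1r2 and Cybb. Of the 47 measured genes of the neutrophil list, 3 were called higher and 6 lower in this difference, beside 14.5% and 23% of all features, whose median was -0.18. The C60 effect differed for Mmp25 (-2.08, limma adjusted p = 0.00354). For Bpi the fitted differences were -1.73 for NiO and -2.27 for C60, but Bpi was well above background only on the clean air arrays of 1 month and passed the filter through them, so these are not read as differences.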

How the results depend on the processing

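For the 5 measured genes, 649 values were recomputed under the alternatives. Of these, 633 kept their side of the threshold or moved by less than the spread, 11 calls were lost, 4 were gained and 1 reversed. The 633 include 35 values, not called either way, that changed sign. Cd177 and Lcn2 kept their calls for NiO against clean air under every alternative run with a test. The reversed value was the time difference of the NiO effect on S100a8, -2.01 (limma adjusted p = 0.036) with another probe, which lies on the opposite strand and was well above background on 11 of 21 arrays. The cause was not tested.

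Counts of features called moved more. They were 1160 (NiO against C60, 3 days, otherwise 1946) and 1489 (time difference of C60, otherwise 2615) with normexp. They were 196 (NiO against C60, 1 month, otherwise 307) with no filter and 1265 (NiO against C60, 3 days) with the filter on every array. With all 4 C60 arrays they were 2973 (C60 at 3 days, otherwise 1238), 5992 (NiO against C60, 3 days) and 5676 (time difference of C60). In fits on the groups compared, which have fewer arrays, they were 841 (NiO, 3 days, otherwise 4731), 3103 (C60, 1 month, otherwise 4962), 63 (NiO against C60, 3 days) and 627 (NiO against C60, 1 month), and 1 of the 5 genes was called in the last. Without NiO arrays 2 and 3 at 3 days they were 1584 (NiO, 3 days), 748 (NiO against C60, 3 days) and 3960 (time difference of NiO, otherwise 9431), and 0 of the 5 genes were called in the last.

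Leaving out 1 array at a time gave 2230 to 9683 (NiO, 3 days), 741 to 915 (C60, 3 days), 2465 to 5154 (C60, 1 month), 573 to 7188 (NiO against C60, 3 days), 135 to 343 (NiO against C60, 1 month) and 1308 to 3208 (time difference of C60). Among the 5 genes it gave 0 to 2 called for NiO against C60 at 1 month, 2 to 3 for NiO at 3 days and 1 to 2 for the time difference of NiO. The highest count for NiO at 3 days came without its array 1. Slide as a block was not run, since each slide held 1 group. No paired analysis was possible because the labels give the groups no shared replicate numbers.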
